A study of Mus musculus with 32 samples.

Results

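Joint cartilage of C57BL/6 mice in the R1 group was compared with cartilage of the MMS D28 group across all 1606 genes that the deposited cartilage table lists. The comparison holds 4 samples, 2 of R1 and 2 of MMS D28, out of 14 cartilage samples and 32 samples in the whole series. The samples were chosen by group label, and all genes of the table were tested. R1 and MMS D28 are both intervention labels. The series describes the animals as control and MMS model mice, and 2 Control cartilage samples are given as a further point of comparison. The labels spell out neither MMS nor R1, give no unit for the 28 after D, and do not state the age, sex or number of mice behind a sample. Nothing in the labels says that the 2 samples of a group came from separate animals, so every p-value below measures the spread between samples, which may be technical.

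Articular cartilage is a tissue without blood vessels in which chondrocytes make and keep a matrix of collagen fibrils, the proteoglycan aggrecan and many small binding proteins. Its surface cells make lubricating proteins, its deeper layers hold further matrix proteins, and its deepest cells border on bone, whose marrow forms neutrophils and B cells. Injury or inflammation of a joint can lower the output of cartilage matrix genes and raise secreted inflammatory proteins.

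The tissue label was compared with defining genes first. Of 22 chondrocyte matrix genes 16 were listed, including Acan, Col2a1, Comp and Sox9. The lowest value of the whole table was 0.5, so a value above 0 does not set these genes apart. The table also held 29 of 33 neutrophil granule genes, 23 of 31 B cell genes and 11 of 20 osteoblast and bone matrix genes, so genes that marrow and bone cells express stood beside those of cartilage. The same table listed 0 of 30 erythroid, 0 of 19 endothelial and 0 of 50 cell cycle genes. Because the table holds only selected genes, a gene that is not listed may still have been expressed. Counts of listed genes therefore do not show which cells were present or lacking. Bulk RNA gives 1 value per gene and sample, and fewer cells of a type cannot be told apart from less RNA per cell.

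Values were the authors' normalised signal, whose unit the table does not state, and their sums over the listed genes were 149830.4 and 145683 in R1, against 149173 and 130272 in MMS D28 and 130471 and 121074 in Control. Those sums cover only the listed genes and are not sequencing depths, which are unknown here. Replicates lay closer together in R1 than in MMS D28: the median absolute log2 difference between the 2 samples of a group was 0.0992 in R1, 0.275 in MMS D28 and 0.120 in Control. It exceeded 1 for 3 genes in R1, 45 genes in MMS D28 and 15 genes in Control. The table is itself a selection, by a rule not given in the sources used here. In it, 1590 genes (99.0%) differed by at least 1.5-fold between the MMS D28 and Control means, whereas 270 (16.8%) did so between R1 and MMS D28 and 762 (47.4%) between R1 and Control. The same MMS D28 samples are the point of comparison here, so a difference of R1 from MMS D28 towards Control is not independent of how genes entered the table.

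Genes called higher in R1 than in MMS D28 cartilage included 14 of 23 measured B cell genes and 3 of 16 chondrocyte matrix genes, and those called lower included Serpina3n, Chil1 and stefin A protease inhibitors. Of all genes called in either direction, 33 were on a gene list and 89 were on none. By limma, with Benjamini-Hochberg adjustment over all 1606 genes, 122 genes were called at an adjusted p below 0.05 (7.60% of the table). Of these, 98 were higher in R1 (6.10%) and 24 were lower (1.49%). The smallest adjusted p was 0.00157, the smallest absolute log2 change among called genes was 0.39, and 34 called genes changed by at least 1 on the log2 scale, 26 higher and 8 lower. Over all genes the median log2 change was 0.07, with a 5th percentile of -0.46 and a 95th percentile of 0.70. With each sample centred on its own median, 125 genes were called, 87 higher and 38 lower, so the share of calls that were higher was 69.6% in place of 80.3%.

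All 98 genes called higher had MMS D28 means below Control, and all 24 called lower had MMS D28 means above Control. For 93 of the 98 and 20 of the 24, the R1 mean lay between the MMS D28 and Control means. In the other 9 it lay at or past the Control mean. Over the whole table, R1 lay between the other group means for 1419 of 1606 genes, at or past Control for 30, and on the far side of MMS D28 for 157. These positions share samples with the comparison and with the choice of genes, and are given as a description.

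**Figure D1:**
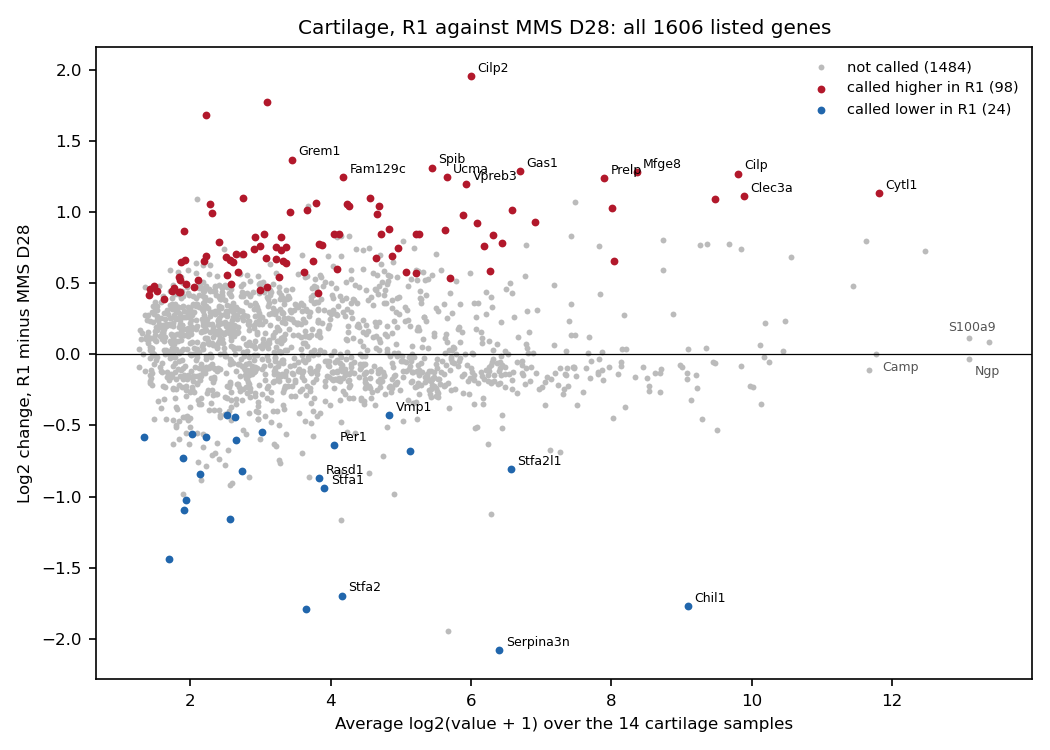
Each point is 1 of the 1606 listed genes, with its average log2(value + 1) over the 14 cartilage samples on the horizontal axis and its log2 change, R1 minus MMS D28, on the vertical axis. Red points are the 98 genes called higher in R1, blue points the 24 called lower and grey points the rest; Cilp2 (1.96) and Serpina3n (-2.08) lie at the upper and lower ends, and the neutrophil genes S100a9, Ngp and Camp lie close to 0.

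The count of calls depended on single samples. It was 19 without R1 replicate 1, 13 without R1 replicate 2, 38 without MMS D28 replicate 1 and 295 without MMS D28 replicate 2, where the sample left alone in its group was assumed to vary like the other groups. A total of 9 genes were called in all 10 alternative fits: Cilp2, Spib, Cd72, Tnfrsf13c, Vit and Itih5l-ps were higher in R1, and Serpina3n, Chil1 and Stfa2 were lower. Tnfrsf13c, Vit and Itih5l-ps were outside the rule for naming genes and are named for this result. Genes described below as called lost that call in 1 or more of the leave-one-out fits unless they are among these 9, and values or ranges are given with each group.

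Cilp2, which encodes a cartilage intermediate layer protein of the extracellular matrix, had the largest log2 change upwards of all 1606 genes. Its gene lies at chr8:69880369-69887687 on the minus strand (GRCm38). The signal was 97.6 and 76.8 in R1, against 18.7 and 24.7 in MMS D28 and 186 and 151 in Control. Both R1 samples stood far above both MMS D28 samples and below both Control samples. The log2 change was 1.96 (SE 0.24, 95% confidence interval 1.44 to 2.49, adjusted p = 0.00157), and over the 10 alternative fits it ranged between 1.77 and 2.16. Its relative Cilp, a matrix protein known to bind TGF-beta, had 1044 and 1162 in R1, against 495 and 419 in MMS D28 and 1881 and 1393 in Control. The groups did not overlap, and the log2 change was 1.27 (95% confidence interval 0.70 to 1.85, adjusted p = 0.0158). For Cilp the adjusted p was 0.0757 without R1 replicate 1, 0.114 without R1 replicate 2 and 0.0513 without MMS D28 replicate 1.

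The superficial zone and joint lining list, as drawn up here, includes both genes. It had 7 of 11 members listed, of which 2 were called higher and 0 lower, where 6.10% of all genes were called higher. Both calls were Cilp2 and Cilp, whose proteins are named for the intermediate layer. The 5 other members, Prg4, Clic5, Creb5, Thbs4 and Tppp3, were not called, so the count does not show a rise of surface or lining genes. The median log2 change of the list was 0.49, against 0.07 over all genes. Prg4, which encodes the joint lubricant lubricin, had 2217 and 3420 in R1, against 2205 and 1754 in MMS D28 and 4274 and 2937 in Control. R1 replicate 1 and MMS D28 replicate 1 were nearly level, and the log2 change of 0.49 did not pass the test (95% confidence interval -0.24 to 1.21, adjusted p = 0.355).

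Chondrocyte matrix genes were higher in R1 as a group in sign, while few passed the test one by one. All 16 listed members had a positive log2 change, between 0.14 for Acan and 1.25 for Ucma, with a median of 0.76. Both R1 samples lay above both MMS D28 samples for 14 of the 16, as they did for 591 of all 1606 genes. Counting both directions, 900 genes (56.0%) had groups that did not overlap. The test called 3 members higher, Ucma, Prelp and Cytl1, and 0 lower, where 6.10% of all genes were called higher. Summed over the list, the signal was 13129 and 12680.3 in R1, against 6325 and 8054 in MMS D28 and 22336 and 17419 in Control. The count was 0 without R1 replicate 1, without R1 replicate 2 and without MMS D28 replicate 1, and it was 12 without MMS D28 replicate 2. At an unadjusted p below 0.05, 13 of the 16 members passed in the fit of all samples, as did 444 of all 1606 genes.

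Prelp, a leucine-rich protein that anchors basement membranes to collagen, had 242 and 255 in R1, against 79.4 and 137 in MMS D28 and 482 and 410 in Control. Its R1 samples were alike and its MMS D28 samples were not, and the log2 change was 1.24 (95% confidence interval 0.68 to 1.81, adjusted p = 0.0161). Ucma, a small Gla-rich protein secreted by chondrocytes, had 63.0 and 56.4 in R1, against 24.8 and 24.3 in MMS D28 and 97.4 and 96.1 in Control, a log2 change of 1.25 (adjusted p = 0.0273). Cytl1, a cytokine-like protein made by chondrocytes, had 4399 and 4493 in R1, against 2137 and 1921 in MMS D28 and 7954 and 6444 in Control, a log2 change of 1.13 (adjusted p = 0.0301). In each of these genes the gap between the groups was wider than the gap between the replicates of either group. Leaving out R1 replicate 1, R1 replicate 2 or MMS D28 replicate 1 gave adjusted p-values of 0.0892, 0.114 and 0.105 for Prelp and of 0.151, 0.117 and 0.105 for Ucma. For Cytl1 they were 0.148, 0.147 and 0.0967, and without MMS D28 replicate 2 the value was 0.0590.

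Aggrecan had the smallest change of the list. Acan had 119 and 134 in R1, against 119 and 111 in MMS D28 and 231 and 174 in Control. The lower R1 sample was less than 1 unit above the higher MMS D28 sample, while both groups lay below both Control samples. The log2 change was 0.14 and its 95% confidence interval ran from -0.39 to 0.67 (adjusted p = 0.722). Col2a1, the main fibrillar collagen of cartilage, had 640.2 and 452 in R1, against 192 and 517 in MMS D28 and 906 and 638 in Control. The groups overlapped, the MMS D28 samples lay far apart, and the log2 change of 0.77 did not pass the test (95% confidence interval -0.04 to 1.58, adjusted p = 0.202). Chad, which encodes chondroadherin, a cell-binding matrix protein, had 5813 and 5730.1 in R1, against 3016 and 4033 in MMS D28 and 9949 and 7434 in Control. Its groups did not overlap and its log2 change was 0.73 (95% confidence interval 0.19 to 1.26, adjusted p = 0.0839). Further members that missed the threshold included Snorc (0.81, adjusted p = 0.0578), Comp (0.78, adjusted p = 0.0683) and Sox9, the master transcription factor of chondrocytes (0.75, adjusted p = 0.0575), all as log2 changes.

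Other called genes with large rises are also made by cartilage or connective tissue. Clec3a, a lectin of cartilage matrix, had 1035 and 1046 in R1, against 433 and 532 in MMS D28 and 1729 and 1340.0 in Control, a log2 change of 1.11 (adjusted p = 0.0209). Mfge8, a secreted protein that links dying cells to phagocytes, had 398 and 381 in R1, against 147 and 172 in MMS D28 and 790.1 and 618 in Control, a log2 change of 1.29 (adjusted p = 0.00640). Gas1, a membrane-anchored co-receptor for hedgehog proteins, had 112 and 113 in R1, against 40.2 and 51.5 in MMS D28 and 234 and 183 in Control, a log2 change of 1.29 (adjusted p = 0.00492). For all 3 genes R1 lay between the other groups without overlap. Mfge8 had adjusted p-values of 0.0567 without R1 replicate 1 and 0.0626 without R1 replicate 2, and Gas1 had 0.0506 without R1 replicate 2. Clec3a had 0.124 without R1 replicate 1, 0.117 without R1 replicate 2 and 0.119 without MMS D28 replicate 1.

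The lists of TGF-beta and BMP genes and of Wnt genes held 3 called genes. Grem1, an antagonist of BMP proteins, had 13.8 and 9.52 in R1, against 4.20 and 3.48 in MMS D28 and 19.4 and 14.1 in Control. Its log2 change was 1.37 (95% confidence interval 0.60 to 2.14, adjusted p = 0.0345), and it was the only 1 of 13 listed TGF-beta and BMP genes called, close to the 7.60% of all genes. The BMP antagonist Nog had a log2 change of 0.21 (adjusted p = 0.374). Among 9 listed Wnt genes, 2 were called higher and 0 lower, where 6.10% of all genes were called higher, and both encode secreted Wnt inhibitors. Wif1 had 275 and 264 in R1, against 117 and 148 in MMS D28 and 416 and 372 in Control (log2 change 1.03, adjusted p = 0.00834). Dkk1 had 6.31 and 5.81 in R1, against 2.70 and 3.69 in MMS D28 and 13.7 and 12.5 in Control (log2 change 0.76, adjusted p = 0.0156). The Wnt inhibitor Sost, known from bone, was not called: it had 35.98 and 31.99 in R1, against 26.4 and 35.4 in MMS D28 and 94.2 and 96.6 in Control, with a log2 change of 0.15 (adjusted p = 0.610). Notum, which encodes an enzyme that inactivates Wnt proteins, was not called either (log2 change 0.55, adjusted p = 0.170). In these signalling lists the median log2 change was 0.16 for TGF-beta and BMP and 0.35 for Wnt. Each of the 3 leave-one-out fits other than that without MMS D28 replicate 2 ended the calls, with adjusted p-values of 0.212, 0.110 and 0.103 for Grem1, 0.0753, 0.0680 and 0.0624 for Wif1, and 0.124, 0.0891 and 0.0967 for Dkk1, without R1 replicate 1, R1 replicate 2 and MMS D28 replicate 1 in that order. Without MMS D28 replicate 2 the adjusted p of Grem1 was 0.0687.

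**Figure D2:**
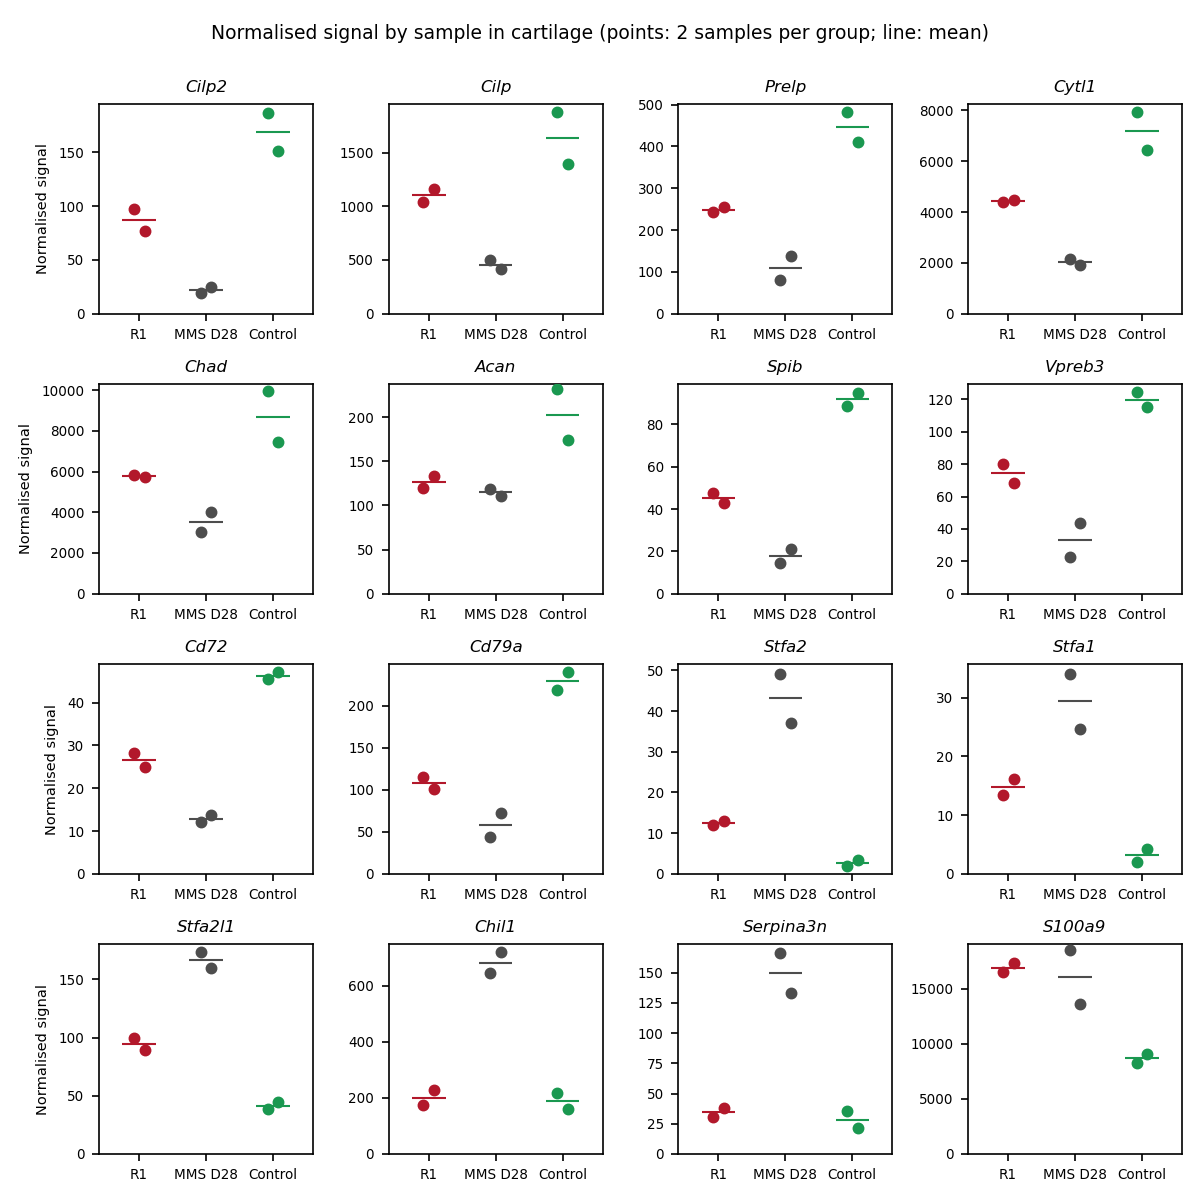
Normalised signal of 16 genes in the R1, MMS D28 and Control cartilage samples, from left to right in each panel, with 1 point per sample, a line at the mean and a vertical axis that starts at 0. In R1 the cartilage and B cell genes lie between MMS D28 and Control, Acan next to MMS D28, and the stefins lie between as well. Chil1 and Serpina3n in R1 are near Control, and S100a9 in R1 is inside the MMS D28 range.

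B cell genes made up the list with the most calls. B cells carry an antigen receptor whose signal passes through CD79A and CD79B, and their precursors in marrow assemble it with the RAG enzymes and a surrogate light chain. Of 31 genes on the list 23 were measured, and 14 were called higher in R1 and 0 lower, where 6.10% of all genes were called higher. The median log2 change was 0.83, and 22 of the 23 changes were positive. In 19 of the 23 genes both R1 samples lay above both MMS D28 samples, as they did in 591 of all 1606 genes. The summed signal was 670 and 619 in R1, against 315 and 457 in MMS D28 and 1205 and 1275 in Control. The number called was 3 without R1 replicate 1, 2 without R1 replicate 2, 4 without MMS D28 replicate 1, 18 without MMS D28 replicate 2 and 8 between only the 4 samples compared.

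Spib, an Ets family transcription factor of B cells, had 47.6 and 42.9 in R1, against 14.7 and 21.0 in MMS D28 and 88.9 and 95.04 in Control. It had the largest change of the list, with no overlap between any of the groups, and a log2 change of 1.32 (SE 0.17, 95% confidence interval 0.95 to 1.68, adjusted p = 0.00171). Vpreb3, a protein that binds immunoglobulin chains in pre-B cells, had 80.3 and 68.3 in R1, against 22.9 and 43.7 in MMS D28 and 124 and 115 in Control, a log2 change of 1.2 (adjusted p = 0.0108). Cd72, a B cell surface receptor, had 28.3 and 24.9 in R1, against 12.04 and 13.7 in MMS D28 and 45.5 and 47.2 in Control, a log2 change of 0.99 (adjusted p = 0.00196). Spib and Cd72 were called in every alternative fit, whereas Vpreb3 had adjusted p-values of 0.0904 without R1 replicate 1 and 0.0650 without R1 replicate 2. Fam129c, a gene known from B cells but not on the list, had 22.2 and 18.3 in R1, against 5.78 and 10.7 in MMS D28 and 34.6 and 37.7 in Control. Its log2 change was 1.25 (adjusted p = 0.00834), and without R1 replicate 1 the adjusted p was 0.0753.

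The promoters of the leading pair are shown because both are B cell genes that moved together. Each run is the stretch of 250 bases before the RefSeq start site (GRCm38.p6), on the strand of the gene. Capitals mark in Vpreb3 the octamer ATTTGCAT, an element known to bind POU factors, and in Spib 2 overlapping matches to CCCNNGGG, the core known to bind early B cell factor. The Vpreb3 window is chr10:75948050-75948299 on the plus strand, which lies inside the longer GENCODE gene, and the Spib window is chr7:44532072-44532321 on the minus strand.
Vpreb3: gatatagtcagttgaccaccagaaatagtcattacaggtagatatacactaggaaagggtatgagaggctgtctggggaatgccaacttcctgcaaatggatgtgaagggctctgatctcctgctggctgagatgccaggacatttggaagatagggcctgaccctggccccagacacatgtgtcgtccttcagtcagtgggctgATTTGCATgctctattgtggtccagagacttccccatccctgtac
Spib: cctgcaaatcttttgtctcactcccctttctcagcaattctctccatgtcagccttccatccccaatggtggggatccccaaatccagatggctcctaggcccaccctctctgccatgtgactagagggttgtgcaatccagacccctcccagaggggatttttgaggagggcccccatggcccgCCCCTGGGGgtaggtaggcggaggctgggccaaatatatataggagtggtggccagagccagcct
The octamer starts 45 bases before the Vpreb3 start site. Searched on both strands, it was found in 526 of 32851 such windows of the mouse genome (1.6%) and in 2 of the 16 B cell list genes with a window, Vpreb3 and Blnk. CCCNNGGG was found in 3882 windows (11.8%) and in 4 of the 16, Igll1, Cd22, Bank1 and Spib. A match is a string of letters and was not tested as a binding site.

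Genes of the B cell receptor and its assembly were among those called. Cd79a had 115 and 101 in R1, against 43.3 and 72.9 in MMS D28 and 219 and 239.7 in Control, a log2 change of 0.93 (adjusted p = 0.0168). Rag1, which cuts DNA to build the receptor genes of lymphocyte precursors, had 3.70 and 3.33 in R1, against 1.01 and 2.03 in MMS D28 and 4.04 and 4.53 in Control, a log2 change of 0.87 (adjusted p = 0.0133). In both, MMS D28 replicate 2 was nearer to R1 than MMS D28 replicate 1 was. Other members called higher included Fcrla (1.05), Ms4a1 (1.05), Myl4 (1.01), Pou2af1 (0.85), Cd79b (0.84), Blk (0.83), Ly6d (0.77) and Akap12 (0.50), as log2 changes. With R1 replicate 1, R1 replicate 2 and MMS D28 replicate 1 left out in turn, the adjusted p was 0.130, 0.0891 and 0.0871 for Cd79a and 0.0975, 0.0699 and 0.0775 for Rag1. For the 8 other members just named, it ran from 0.0383 for Myl4 to 0.161 for Ly6d without R1 replicate 1, from 0.0650 for Fcrla to 0.187 for Akap12 without R1 replicate 2, and from 0.0230 for Fcrla to 0.205 for Akap12 without MMS D28 replicate 1. Myl4 in the first of these fits and Fcrla in the last were the exceptions that were still called. Between only the 4 samples compared, Cd79a (0.0530), Cd79b (0.0604), Blk (0.0630), Ly6d (0.0717) and Akap12 (0.145) lost the call, and Akap12 also lost it with the replicate block (0.0548), all as adjusted p.

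The list was not uniform. Pax5, a factor that fixes B cell identity, had a log2 change of 0.70 (adjusted p = 0.0814) and Ebf1, which acts with it, had 0.11 (95% confidence interval -0.24 to 0.47, adjusted p = 0.668). Jchain, which joins secreted antibodies of plasma cells, had 43.6 and 32.9 in R1, against 57.7 and 48.2 in MMS D28 and 26.97 and 27.99 in Control. It was the only member with a negative log2 change (-0.47, adjusted p = 0.167), and its MMS D28 samples were the high ones. Among the 5 T and NK cell genes listed, 1 was called higher, where 6.10% of all genes were: Il7r, the interleukin-7 receptor of lymphocyte precursors, with 6.01 and 7.22 in R1, against 3.56 and 3.88 in MMS D28 and 6.56 and 5.24 in Control (log2 change 0.69, adjusted p = 0.0224). Il7r had adjusted p-values of 0.0753 and 0.172 without R1 replicate 1 and R1 replicate 2, of 0.105 without MMS D28 replicate 1 and of 0.0598 between only the 4 samples compared. Beside these rises, both R1 sums of the neutrophil list lay between the 2 MMS D28 sums, and the part of cell composition in the B cell values was not tested.

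Neutrophil granule genes, which neutrophils make while they mature in marrow, were not called in R1 against MMS D28 apart from the stefin A group. Of 33 genes on the list 29 were measured, 0 were called higher and 4 lower, where 1.49% of all genes were called lower, and the median log2 change was -0.11. The summed signal was 66902 and 64790.4 in R1, against 75804 and 57015 in MMS D28 and 35773 and 36294 in Control. Both R1 sums lay between the 2 MMS D28 sums and far above Control. S100a9, a subunit of calprotectin, had 16488 and 17349 in R1, against 18514 and 13645 in MMS D28 and 8237 and 9098 in Control. The R1 samples lay inside the range of the MMS D28 samples, and the log2 change was 0.09 with a 95% confidence interval of -0.46 to 0.64 (adjusted p = 0.834), and -0.13 without MMS D28 replicate 2. Intervals of similar width were found for S100a8 (log2 change 0.12, -0.40 to 0.63) and for the granule protein gene Ngp (-0.03, -0.51 to 0.44).

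Stefin A genes were the exception within that list. Stefins are small inhibitors of cysteine proteases such as cathepsins, and the mouse stefin A genes form a cluster on chromosome 16. Stfa2 had 11.98 and 12.97 in R1, against 49.1 and 37.1 in MMS D28 and 1.93 and 3.46 in Control. R1 stood below MMS D28 and above Control without overlap, with a log2 change of -1.70 against MMS D28 (95% confidence interval -2.26 to -1.13, adjusted p = 0.00465) and of 1.90 against Control (adjusted p = 0.000584). Stfa1 had 13.4 and 16.1 in R1, against 34.1 and 24.7 in MMS D28 and 2.07 and 4.30 in Control, a log2 change of -0.94 against MMS D28 (adjusted p = 0.0316). Stfa2l1 had 100 and 89.5 in R1, against 173 and 160.0 in MMS D28 and 38.4 and 44.3 in Control, a log2 change of -0.81 (adjusted p = 0.00973). The same order of groups was seen in all 3. The copies BC100530 (log2 change -1.79, adjusted p = 0.00834) and Gm5483 (-0.68, adjusted p = 0.0378) were also called lower, and Stfa3 was not (-0.76, adjusted p = 0.0546). Of these 6 copies, Stfa2 was called in every leave-one-out fit and the other called copies were not. With R1 replicate 1, R1 replicate 2 and MMS D28 replicate 1 left out in turn, the adjusted p was 0.188, 0.114 and 0.199 for Stfa1, 0.0567, 0.110 and 0.0513 for Stfa2l1, and 0.0598, 0.0680 and 0.0647 for BC100530. Gm5483 lost its call in every leave-one-out fit, with log2 changes between -0.72 and -0.64. Its adjusted p was 0.0617 between only the 4 samples compared. Stfa3 was called after centring (adjusted p = 0.0477). With a pseudocount of 0.1 the adjusted p of Stfa1 was 0.0509.

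These 6 genes are related copies, not all of them close. Their longest open reading frames in the GENCODE transcripts shared between 59.3% and 96.5% of aligned bases, the highest between Stfa2 and Stfa2l1, and how the authors' counting assigned reads shared by copies is not stated. Stfa1 was the most distant copy, with 59.3% to 74.4% shared with the others. The values of single copies are therefore uncertain, above all for Stfa2 and Stfa2l1. The 250 bases before the RefSeq start sites (GRCm38.p6) of the called copies with a window are shown because these genes moved together. Capitals mark the longest run common to all 3.
Stfa1: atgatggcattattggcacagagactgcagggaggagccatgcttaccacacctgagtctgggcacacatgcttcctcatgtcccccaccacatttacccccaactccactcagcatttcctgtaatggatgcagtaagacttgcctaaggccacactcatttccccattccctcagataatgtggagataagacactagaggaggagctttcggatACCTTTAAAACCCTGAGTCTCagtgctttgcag
Stfa2: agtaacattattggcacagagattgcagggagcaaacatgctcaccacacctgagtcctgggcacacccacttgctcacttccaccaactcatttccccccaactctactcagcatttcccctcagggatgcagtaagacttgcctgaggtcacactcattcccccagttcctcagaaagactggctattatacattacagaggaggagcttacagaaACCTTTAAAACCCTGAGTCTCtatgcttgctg
Stfa2l1: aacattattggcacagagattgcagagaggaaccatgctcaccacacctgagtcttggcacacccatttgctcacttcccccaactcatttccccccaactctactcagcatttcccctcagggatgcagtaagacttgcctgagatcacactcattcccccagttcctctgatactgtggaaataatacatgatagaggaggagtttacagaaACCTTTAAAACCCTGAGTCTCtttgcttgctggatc
The windows are chr16:36276898-36277147 on the plus strand for Stfa1, chr16:36408364-36408613 on the minus strand for Stfa2 and chr16:36156561-36156810 on the plus strand for Stfa2l1. The shared run of 21 bases starts 33, 32 and 36 bases before their start sites, and among 32851 windows it was found in 3, on either strand. Identity over the aligned windows was 81% between Stfa1 and Stfa2, 80.9% between Stfa1 and Stfa2l1 and 89.4% between Stfa2 and Stfa2l1.

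Serpina3n and Chil1 were lower in R1 than in MMS D28 and close to Control. Serpina3n, a secreted inhibitor of serine proteases and an acute phase gene, had 30.9 and 38.2 in R1, against 166 and 133 in MMS D28 and 35.2 and 21.3 in Control. Its log2 change of -2.08 against MMS D28 was the largest downward change of all 1606 genes (95% confidence interval -2.72 to -1.44, adjusted p = 0.00263). Against Control it was 0.32 (95% confidence interval -0.32 to 0.96, adjusted p = 0.332). Chil1, a secreted chitinase-like protein without enzyme activity that chondrocytes and macrophages release in inflamed joints, had 174 and 227 in R1, against 646 and 719.6 in MMS D28 and 218 and 159 in Control. Both R1 samples were far below both MMS D28 samples and overlapped the Control samples, with log2 changes of -1.77 against MMS D28 (95% confidence interval -2.29 to -1.26, adjusted p = 0.00196) and of 0.09 against Control (adjusted p = 0.722). The genes lie at chr12:104406729-104414329 and chr1:134182176-134190181 (GRCm38, plus strand).

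Lists of inflammation genes held further falls. The list of serine protease inhibitors and acute phase genes had 12 of 21 members measured, with 0 called higher and 2 lower, where 1.49% of all genes were called lower: Serpina3n and Tnfaip6, a hyaluronan-binding protein induced by inflammation. Tnfaip6 had 1.37 and 1.53 in R1, against 2.93 and 5.32 in MMS D28 and 2.50 and 1.60 in Control (log2 change -1.03, adjusted p = 0.0227). Of 11 chemokine and cytokine genes, 0 were called higher and 2 lower, against the same 1.49%. Ccl8, a chemokine for monocytes, had 1.99 and 1.53 in R1, against 3.27 and 4.67 in MMS D28 and 1.64 and 1.51 in Control (log2 change -0.84, adjusted p = 0.0156). Osm, the cytokine oncostatin M, had 6.87 and 6.60 in R1, against 11.0 and 10.5 in MMS D28 and 4.93 and 5.02 in Control (log2 change -0.60, adjusted p = 0.0321). All 3 genes had low values, where the pseudocount of 1 shrinks the log2 change. All 3 lost the call without R1 replicate 1 and without R1 replicate 2. The log2 changes there were -0.98 and -1.07 for Tnfaip6, -0.96 and -0.72 for Ccl8, and -0.63 and -0.58 for Osm. Osm also lost the call without MMS D28 replicate 1 (log2 change -0.57), and Tnfaip6 without MMS D28 replicate 2 (-0.68). Osm had an adjusted p of 0.0956 between only the 4 samples compared and of 0.0506 with the replicate block. Interleukin-1 beta (Il1b) overlapped, with 25.3 and 14.1 in R1, against 17.5 and 25.5 in MMS D28 and 14.8 and 13.4 in Control.

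The remaining named falls were smaller. Rasd1, a Ras-like gene induced by glucocorticoid, had 11.7 and 10.1 in R1, against 19.2 and 22.1 in MMS D28 and 9.80 and 9.30 in Control, a log2 change of -0.87 (adjusted p = 0.0168). Per1, a repressor of the circadian clock, had 17.5 and 18.9 in R1, against 30.9 and 26.9 in MMS D28 and 9.09 and 8.34 in Control, a log2 change of -0.64 (adjusted p = 0.0488). Vmp1, a membrane protein needed for autophagy, had 26.8 and 28.9 in R1, against 37.0 and 38.7 in MMS D28 and 19.7 and 20.7 in Control, a log2 change of -0.43 (adjusted p = 0.0451). The groups did not overlap in these genes, and R1 lay between MMS D28 and Control in each of them, with Rasd1 close to Control. Per1 and Vmp1 were no longer called between only the 4 samples compared (adjusted p = 0.0831 and 0.210) or with the replicate block (adjusted p = 0.0689 and 0.0711). Per1 was also not called without the trend (adjusted p = 0.05003) or with a pseudocount of 0.1 (adjusted p = 0.0516). Rasd1, Per1 and Vmp1 each lost the call when R1 replicate 1, R1 replicate 2 or MMS D28 replicate 1 was left out. The log2 changes, in that order, were -0.97, -0.77 and -0.97 for Rasd1 and -0.58, -0.69 and -0.54 for Per1. For Vmp1 they were -0.38, -0.48 and -0.46. Vmp1 also lost the call without MMS D28 replicate 2 (log2 change -0.40).

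**Figure D3:**
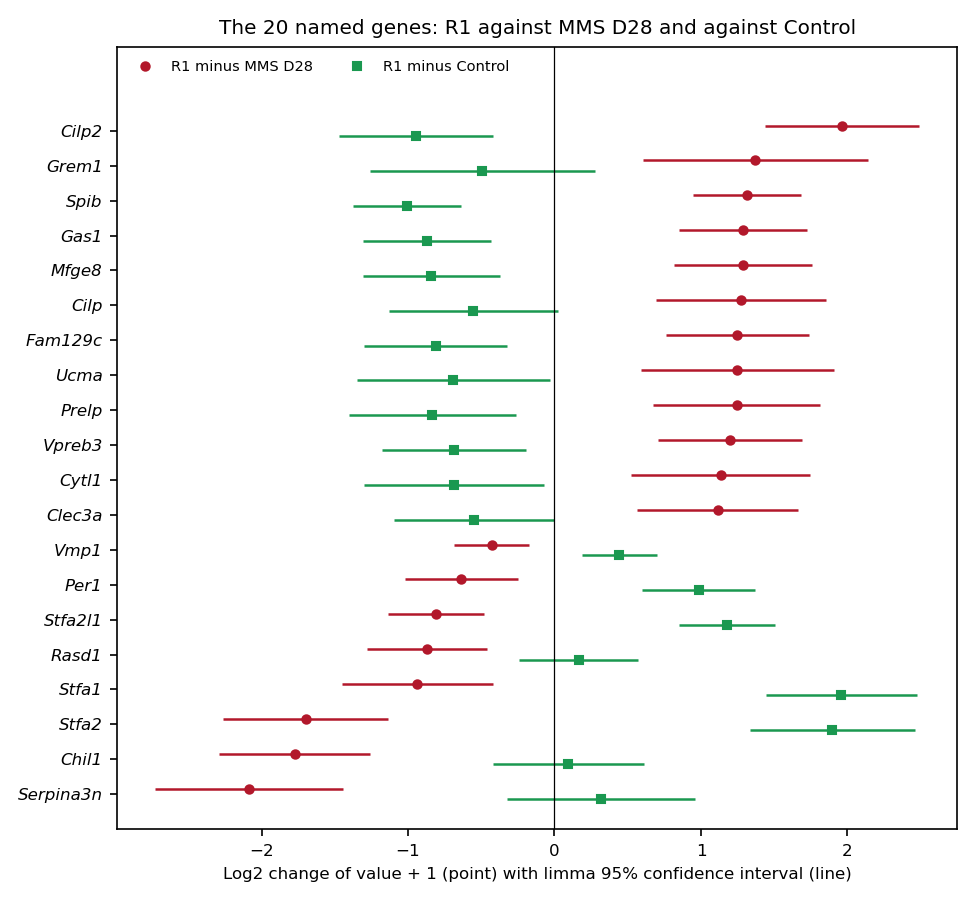
Log2 change of the 12 largest rises and the 8 falls named by rule, with limma 95% confidence intervals; red circles are R1 minus MMS D28 and green squares are R1 minus Control. The 12 rises lie to the right of 0 against MMS D28 and to the left of it against Control; Grem1, Cilp, Serpina3n, Chil1 and Rasd1 have Control intervals that include 0.

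Set against Control, which shares the R1 samples with this comparison, 13 of these 20 genes were called, where 1112 of all 1606 genes (69.2%) were. Of the 12 rises, 8 were called below Control, and Grem1, Cilp, Ucma and Clec3a were not. Of the 8 falls, 5 were called above Control, and Serpina3n, Chil1 and Rasd1 were not. A p that misses the threshold does not show that R1 and Control were alike in these 7 genes. The number called was 7 without R1 replicate 2 and 7 without Control replicate 1.

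In the bone and deep cartilage lists 1 gene was called, where 7.60% of all genes were. Over all 1606 genes 444 had an unadjusted p below 0.05, and so had 2 of 7 listed hypertrophic chondrocyte genes, of which limma called 0. Their median log2 change was 0.28. Col10a1, the collagen of hypertrophic chondrocytes, had 811 and 988 in R1, against 442 and 649 in MMS D28 and 1191 and 1039 in Control (log2 change 0.74, adjusted p = 0.0973). Of 11 osteoblast and bone matrix genes, 1 was called higher, Omd, a leucine-rich protein of mineralised matrix, with 116 and 89.9 in R1, against 50.0 and 69.2 in MMS D28 and 161 and 111 in Control (log2 change 0.79, adjusted p = 0.0378). Omd lost that call without R1 replicate 1, R1 replicate 2 or MMS D28 replicate 1, with log2 changes of 0.60, 0.97 and 0.56 in that order. Its adjusted p was 0.0667 between only the 4 samples compared and 0.0580 with the replicate block. Osteocalcin (Bglap) had 2269 and 1278 in R1, against 773 and 1454 in MMS D28 and 2566 and 2526 in Control. Its groups overlapped and both varied widely.

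In the fibrosis genes the MMS D28 samples lay far apart. Of 38 genes on the fibrillar collagen and fibrosis list 14 were measured and limma called 0, where it called 7.60% of all genes. At an unadjusted p below 0.05 there were 4, against 444 of all 1606 genes, and the median log2 change was -0.53. Of the 14 changes, 5 were positive and 9 negative. Sparc, a collagen-binding protein of bone and connective tissue, had 3419 and 2581 in R1, against 1354 and 2151 in MMS D28 and 5407 and 4547 in Control, a positive log2 change of 0.80 without overlap of the groups (adjusted p = 0.0578, and 0.0404 without the trend). Col3a1, the collagen of loose connective tissue and scar, had 87.6 and 141 in R1, against 94.2 and 335 in MMS D28 and 45.6 and 70.1 in Control. Postn, which encodes periostin, a matrix protein of injured tissue, had 7.13 and 8.22 in R1, against 11.7 and 28.6 in MMS D28 and 10.4 and 11.2 in Control (log2 change -1.16, 95% confidence interval -2.16 to -0.17, adjusted p = 0.123). The gene Aspn, for a leucine-rich protein that binds TGF-beta, had 6.31 and 11.3 in R1, against 5.52 and 37.7 in MMS D28 and 2.54 and 4.20 in Control. For Col3a1, Postn and Aspn MMS D28 replicate 2 was the highest of these samples, while MMS D28 replicate 1 was within or near the R1 range for Col3a1 and Aspn. Acta2, the actin of smooth muscle and myofibroblasts, had a log2 change of -0.86 (adjusted p = 0.0636), and its adjusted p was 0.0188 without MMS D28 replicate 1. With each sample centred on its median, 2 members were called, Acta2 (adjusted p = 0.0392) and Wisp2 (adjusted p = 0.0380), which had 0.0578 otherwise.

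Markers of fat and muscle differed between the samples of a group. Over the whole table limma called 7.60% of genes, and 444 of 1606 had an unadjusted p below 0.05. The 6 adipocyte genes measured, of which limma called 0, with 2 at an unadjusted p below 0.05, had sums of 107 and 107 in R1, against 134 and 280 in MMS D28 and 257 and 690 in Control. The fat cell gene Cfd, which encodes adipsin, had 9.46 and 18.2 in R1, against 28.5 and 99.97 in MMS D28 and 93.7 and 302 in Control (log2 change -1.94, adjusted p = 0.0592). Cfd was called after centring (adjusted p = 0.0477), between only the 4 samples compared (adjusted p = 0.0308) and without MMS D28 replicate 1 (adjusted p = 0.0333), and its log2 change was -2.83 without MMS D28 replicate 1 and -1.06 without MMS D28 replicate 2. MMS D28 replicate 2, high in the fibrosis genes, was also the higher MMS D28 sample for Cfd and for the list. The 5 skeletal muscle genes, of which limma called 0 and 0 had an unadjusted p below 0.05, had sums of 35.3 and 30.2 in R1, against 70.3 and 36.2 in MMS D28 and 63.1 and 230.1 in Control, so that there MMS D28 replicate 1 was the higher one. The part of such tissue in the fibrosis values was not tested.

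Limma called 0 members of the interferon, hypoxia, macrophage and protease lists, where it called 7.60% of all genes. Lists of 7 to 10 genes may hold 0 calls at that share. Over all 1606 genes, 444 had an unadjusted p below 0.05. The 7 interferon response genes, 5 of them at an unadjusted p below 0.05, had a median log2 change of 0.40, and the one nearest to the threshold was Irgm1 (0.45, adjusted p = 0.0605). Among 9 hypoxia and glycolysis genes the median was -0.01, and 3 had an unadjusted p below 0.05. The 10 monocyte and macrophage genes had a median of -0.05, 2 at an unadjusted p below 0.05, and sums of 1398 and 1299 in R1, against 1578 and 1224 in MMS D28 and 746 and 833 in Control. Of 9 matrix proteases and their inhibitors 1 had an unadjusted p below 0.05, and Mmp13, the main collagenase of cartilage, had 124 and 139 in R1, against 145 and 194 in MMS D28 and 115 and 101 in Control (log2 change -0.36, 95% confidence interval -1.05 to 0.34). With 2 samples per group such intervals were wide, and a true change anywhere inside them is compatible with the values.

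**Figure D4:**
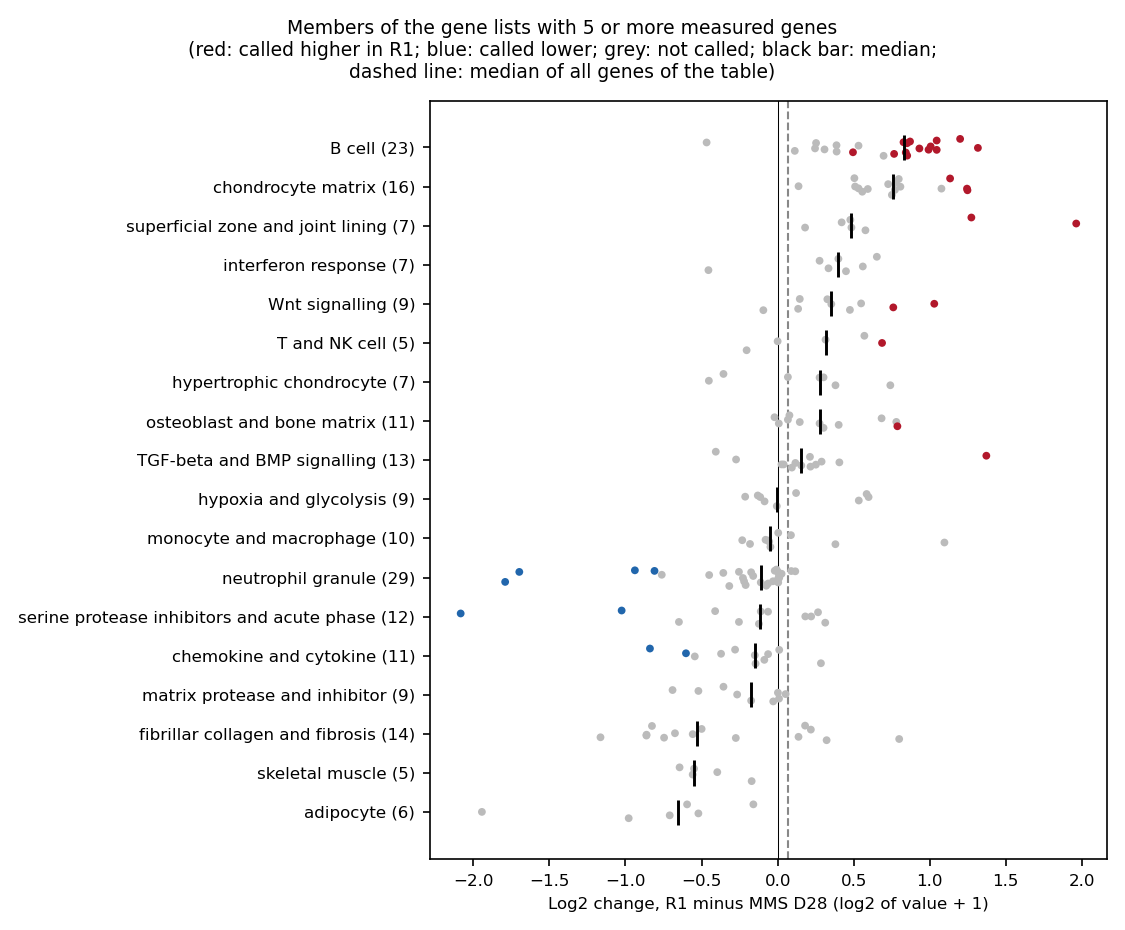
Log2 change, R1 minus MMS D28, of each measured member of the lists with at least 5 members, 1 row per list with the number measured in brackets; red points are called higher, blue points called lower, grey points not called, and black bars mark medians. The dashed line is the median of all 1606 genes (0.07); list medians run from 0.83 for B cell genes and 0.76 for chondrocyte matrix genes to -0.65 for adipocyte genes.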

How the data were processed

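Total RNA of mouse cartilage and synovium was sequenced, per the labels' protocols after Trizol extraction and with BGI libraries. The deposited cartilage values are normalised signal per gene and sample, made by the authors with HISAT2 and mm10 among the tools and builds in the submitters' processing notes. The unit, the counting and the rule by which the 1606 genes were selected are not given in the sources used here. The values have 2 decimals and give no counts, so the depth is unknown. The synovium table, normalised apart and without MMS D28, was not used.

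Values were tested with limma 3.58.1 in R 4.3.3 on log2(value + 1), with a variance trend, over the 14 cartilage samples in 7 groups, for R1 minus MMS D28 and R1 minus Control. P-values were adjusted by Benjamini-Hochberg over all genes, and a gene was called at an adjusted p below 0.05. The filter, a value of at least 1 in at least 2 samples, removed 0 genes. With 2 samples against 2 an exact permutation test cannot pass that threshold. A log2 change on this scale understates the change of low values. The fit was tested on simulated data before use.

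Named genes were called, did not overlap between groups, had an average log2 value above the median of 3.29 and were no predicted models; the 12 largest rises and all 8 falls that passed were named. Up to 4 members of each of 28 gene lists and the 10 genes of highest average value could also be named. The comparison, the lists and the rule were chosen with earlier results of these data known, and lists were described by counts and medians with no test. The values of 1 list member are not reported here. Levels were not compared between genes, because no length scaling is stated.

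Gene positions are from GENCODE vM21 (GRCm38, the assembly of mm10), in which 1584 of the 1606 symbols matched 1 gene. Promoters are from RefSeq (GRCm38.p6). Figures and tables were made with Python 3.11.15, pandas 2.3.3, numpy 2.4.6, matplotlib 3.10.9 and Biopython 1.88. As alternatives, samples were centred at their median log2 value, the pseudocount was set to 0.1, the filter or the trend was dropped, a replicate block was added, only the 2 groups compared were fitted, each replicate was left out in turn, and an absolute log2 change of at least 1 was required as well.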

Additional observations from a re-analysis of the deposited data

How the results depend on the processing

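None of the called genes named here turned its direction under the alternatives. For all 122 called genes the groups did not overlap, so leaving out a replicate could not turn the direction. Their kept direction is therefore no sign of stability. Genes not called did turn, and the following are examples, as log2 changes. S100a9 (-0.13) and S100a8 (-0.08) turned without MMS D28 replicate 2, and Ngp (0.17) and Ebf1 (-0.14) without MMS D28 replicate 1. Ngp also turned without R1 replicate 2 (0.03). Aspn, at -0.75 in the main fit, turns without MMS D28 replicate 2, because both R1 samples lay above MMS D28 replicate 1. Col3a1, Il1b and Sost had overlapping groups too, so their direction can hang on 1 sample. They were not followed by setting. Against 122 genes called, 98 higher and 24 lower, the fit of only the 2 groups called 68, 51 of them higher, an absolute log2 change of at least 1 left 34, and centring raised the number lower to 38. Leaving out 1 replicate in turn gave 13 to 295 calls, 9 to 242 of them higher and 4 to 53 lower. List members called, 33 in all, ranged between 6 and 60, and the named genes called against Control, 13 of 20, between 7 and 11. No filter changed nothing, since the filter removed 0 genes.

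The replicate numbers are not said to pair samples, and only 2 numbers are shared, with a correlation of -0.00158 between the R1 and MMS D28 deviations over 1606 genes. With the replicate number as a block 100 genes were called, 82 higher and 18 lower, with 29 list members and 12 of the 20 named genes against Control. Of the 20 named genes, 18 were called with the block, 18 with a pseudocount of 0.1, 19 without the trend, 18 between only the 2 groups and all 20 after centring, but 6 without R1 replicate 1, 6 without R1 replicate 2, 9 without MMS D28 replicate 1 and 17 without MMS D28 replicate 2. At an unadjusted p below 0.05 the main fit had 444 genes, and the leave-one-out fits had 266 to 625. The cause of these differences was not tested, beyond the smaller number of samples in each group. Depth is unknown, and 2 samples per group limit the precision.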

Other observations

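Several called genes outside the lists encode proteins of the matrix or enzymes that modify it. They were chosen after their values were seen. Vit, which encodes the matrix protein vitrin, had 25.4 and 24.1 in R1, against 10.01 and 12.1 in MMS D28 and 36.95 and 34.9 in Control, a log2 change of 1.10 (limma adjusted p = 0.00157), and it was called in all 10 alternative fits. Chst3, a sulfotransferase for chondroitin chains, had 17.7 and 20.2 in R1, against 7.24 and 10.1 in MMS D28 and 27.8 and 27.2 in Control, a log2 change of 1.06 (adjusted p = 0.00639, and 0.0680 without R1 replicate 2). The sulfotransferases Chst5 (log2 change 0.85, adjusted p = 0.0268) and Hs3st3a1, with 4.54 and 5.15 in R1 against 2.02 and 1.83 in MMS D28 and 8.47 and 6.73 in Control (adjusted p = 0.0156) were also higher. Without R1 replicate 1, R1 replicate 2 and MMS D28 replicate 1 in turn, the adjusted p was 0.160, 0.114 and 0.127 for Chst5 and 0.0753, 0.114 and 0.0639 for Hs3st3a1. Gdf6, a BMP family ligand of joints, differed in its place: it had 6.19 and 8.66 in R1, against 1.10 and 2.21 in MMS D28 and 2.71 and 5.73 in Control. Both R1 samples lay above all MMS D28 and Control samples, and the log2 change was 1.68 against MMS D28 (adjusted p = 0.0209) and 0.74 against Control (adjusted p = 0.0970). The same 3 omissions gave adjusted p-values of 0.0753, 0.139 and 0.135 for Gdf6. The pseudogene Itih5l-ps had 10.1 and 7.19 in R1, against 1.64 and 1.93 in MMS D28 and 26.3 and 20.8 in Control (log2 change 1.78, adjusted p = 0.00157).

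Further B cell genes outside the list were called higher as well. These genes, and the lower ones named after them, were also chosen after their values were seen. They add no separate support to the list counts. Tnfrsf13c, the receptor for the survival factor BAFF, had 10.3 and 9.36 in R1, against 3.66 and 5.11 in MMS D28 and 22.4 and 26.5 in Control (log2 change 1.02, adjusted p = 0.00465). The transcription factor genes Irf4 (0.79, adjusted p = 0.00639) and Bach2 (0.66, adjusted p = 0.0156) and the surface lectin gene Siglecg (0.75, adjusted p = 0.00768) rose too, as log2 changes. Their adjusted p without R1 replicate 2 was 0.0650, 0.0680 and 0.0715. Bach2 also had 0.130 without R1 replicate 1 and 0.102 without MMS D28 replicate 1, and Siglecg had 0.0598 without R1 replicate 1. Among genes that were lower, Gdf15, a secreted stress protein, had 1.79 and 1.13 in R1, against 4.04 and 7.70 in MMS D28 and 1.64 and 1.42 in Control (log2 change -1.44, adjusted p = 0.00640, and 0.0690 without R1 replicate 2). Muc1, a membrane mucin, had 1.85 and 2.91 in R1, against 5.42 and 7.62 in MMS D28 and 2.61 and 2.07 in Control (log2 change -1.16, adjusted p = 0.0168, 0.148 without R1 replicate 1 and 0.0626 without R1 replicate 2).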
